A study of Mus musculus with 12 samples.

Results

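The glutathione, thioredoxin and detoxification enzymes of the mouse were followed across 3 cell populations sorted from the adult dentate gyrus. Genes entered by symbol: glutathione peroxidases and transferases, the glutathione synthesis enzymes, peroxiredoxins, thioredoxins and their relatives, glutaredoxins, superoxide dismutases, heme oxygenases, quinone reductases, metallothioneins, aldehyde dehydrogenases, aldo-keto and carbonyl reductases, and sestrins. A gene also had to be above 0 in at least 4 libraries, which 63 of 10749 listed genes met. Of the 65 listed genes with a matching symbol, Gpx6 and Akr1c21 were left out, each above 0 in 1 library, and Akr1c19 and Akr1d1 were just inside with 4 libraries. All 63 genes lie on the + strand of the genome, as do 10573 of the 10579 listed genes that could be placed. Of the 130 genes of these families in the mouse annotation, 72 lie on the + strand and 65 of those are listed, whereas 0 of the 58 on the - strand are listed. The - strand relatives were not analysed here.

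Cells make hydrogen peroxide and lipid peroxides as by-products of metabolism, and glutathione and thioredoxin are the small thiol carriers that supply electrons to the enzymes that remove them. Glutathione transferases couple glutathione to reactive compounds, aldehyde dehydrogenases and aldo-keto reductases clear aldehydes and ketones, and metallothioneins bind zinc and copper. Many of these genes are known targets of the transcription factor NRF2 and the metal-sensing factor MTF1. In brain, astrocytes are known as a main site of glutathione and metallothionein production.

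The mice carried the LPA1-GFP reporter, a transgene in which the lysophosphatidic acid receptor 1 gene drives green fluorescent protein (STOCK Tg(Lpar1-EGFP)GX193Gsat/Mmucd). The line was on an FVB/N-Swiss Webster background and was rederived into C57BL/6, and all groups shared the transgene, the age of 8 weeks and the tissue. The stem group was LPA1-GFP+EGFR+Prominin1+. The progenitor group pooled 3 fractions of reporter-positive cells: EGFR+Prominin-1-, EGFR-Prominin-1-, and a fraction labelled EGF-Prominin-1+. The niche group was LPA1-GFP-, cells without the reporter. The series presents the reporter as a mark of adult hippocampal stem cells, and the comparisons ask how their expression differs from that of the other sorted cells. Each of the 3 groups had 4 libraries, made from the amplified polyA RNA of 1000 cells. The series text describes 3 populations from each of 4 replicates without saying whether a replicate is 1 animal or a pool, and the p-values therefore reflect only how far these libraries scatter, which may be technical.

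Levels are given as RPKM, reads normalised to exon length and to the counted reads of the library, divided by a trimmed-mean (TMM) scaling factor for each library. Fold changes are on the log2(RPKM + 1) scale, which understates the change of low genes, and a gene was called at a Benjamini-Hochberg adjusted p under 0.05 in limma, a linear model with a spread estimate shared over genes. The libraries held 7597256 to 22854036 counted reads, and the 63 genes took 1.04 to 1.78% of them. Alpha-globin genes of red cells took 33, 10.9, 2.62 and 6.81% of reads in niche replicates 1 to 4 and 0.228% or less in the other libraries, and the scaling factor of niche replicate 1 was the lowest at 0.418. Mitochondrial genes took 15.4 to 25.8% of reads in niche, 9.94 to 12% in stem and 9.26 to 14.1% in progenitor libraries, and their part in the comparisons with niche was not tested. Progenitor replicate 1 was the highest progenitor library for 29 of the 57 genes tested, and niche replicate 1 the highest niche library for 30; over all tested genes these shares were 42.0% and 32.3%.

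Markers of several cell types moved with the groups. Egfr, 1 of the sorted proteins, was at 24.7 to 38.6 RPKM in the stem libraries and at 1.10 to 9.98 RPKM in the progenitor and 1.22 to 21.9 RPKM in the niche libraries; the other 2 sorted proteins were not analysed here. Neural stem and radial glia markers, 8 of 13 listed, summed to 724 to 1402 RPKM in stem, against 1277 to 2614 in progenitor and 690 to 822 in niche libraries, so this sum did not set the stem group above the progenitor group. Of 15 macrophage and microglia markers, 6 were listed, and their summed RPKM was 1961 to 7548 in stem libraries, 116 to 227 in progenitor libraries and 2623 to 4863 in niche libraries, with no marker at 0 throughout a group; all 6 were called higher in stem than progenitor. For astrocytes, 5 of 10 markers summed to 551 to 1135, 3378 to 4849 and 4877 to 6448 in the same order. For dividing cells, 4 of 8 markers summed to 475 to 844, 116 to 248 and 6.81 to 22.3. In sorted pools, fewer cells of a type and less RNA per cell cannot be told apart.

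Most of the enzymes did not pass the test in any comparison, and in each single comparison most of all tested genes did not pass either. Of the 63 genes, 57 were tested, 42 of them were called in 0 comparisons, 6 in 1, 9 in 2 and 0 in all 3. This split was not counted over all tested genes, so it does not set the enzymes apart from other genes. Among the 15 called genes, Gpx3, Txnip, Hmox1 and Akr1c13 had their highest means in stem libraries and Mt1 and Mt3 their lowest. Prdx2, Txnrd1 and Aldh1a2 were low in niche libraries. Of the 24 calls, 7 were lost in at least 1 of 20 alternative analyses. Stem against progenitor called 4 genes higher and 3 lower, 7 of 57, where 7.10% of all tested genes were called (3.71% higher, 3.4% lower). Stem against niche called 6 higher and 6 lower, 12 of 57, where 21.6% of all genes were called (10.9% higher, 10.7% lower). Progenitor against niche called 4 higher and 1 lower, 5 of 57, where 11.5% of all genes were called (5.68% higher, 5.78% lower). As shares of the members these counts are 12.3, 21.1 and 8.77%, above, close to and below the background. Counts by enzyme class, given below, cover at most 9 tested genes each, too few to set a class apart from these shares of all genes. Their median log2 fold changes were -0.29, -0.04 and -0.04 in the 3 comparisons, against -0.06, 0.09 and 0.15 over all 8361 genes tested. Scaling by library totals moved the all-gene median of stem against niche to 0.58, with 2017 genes called higher and 586 lower in place of 910 and 896, and that of progenitor against niche to 0.62, with 1525 and 314 in place of 475 and 483.

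**Figure D1:**
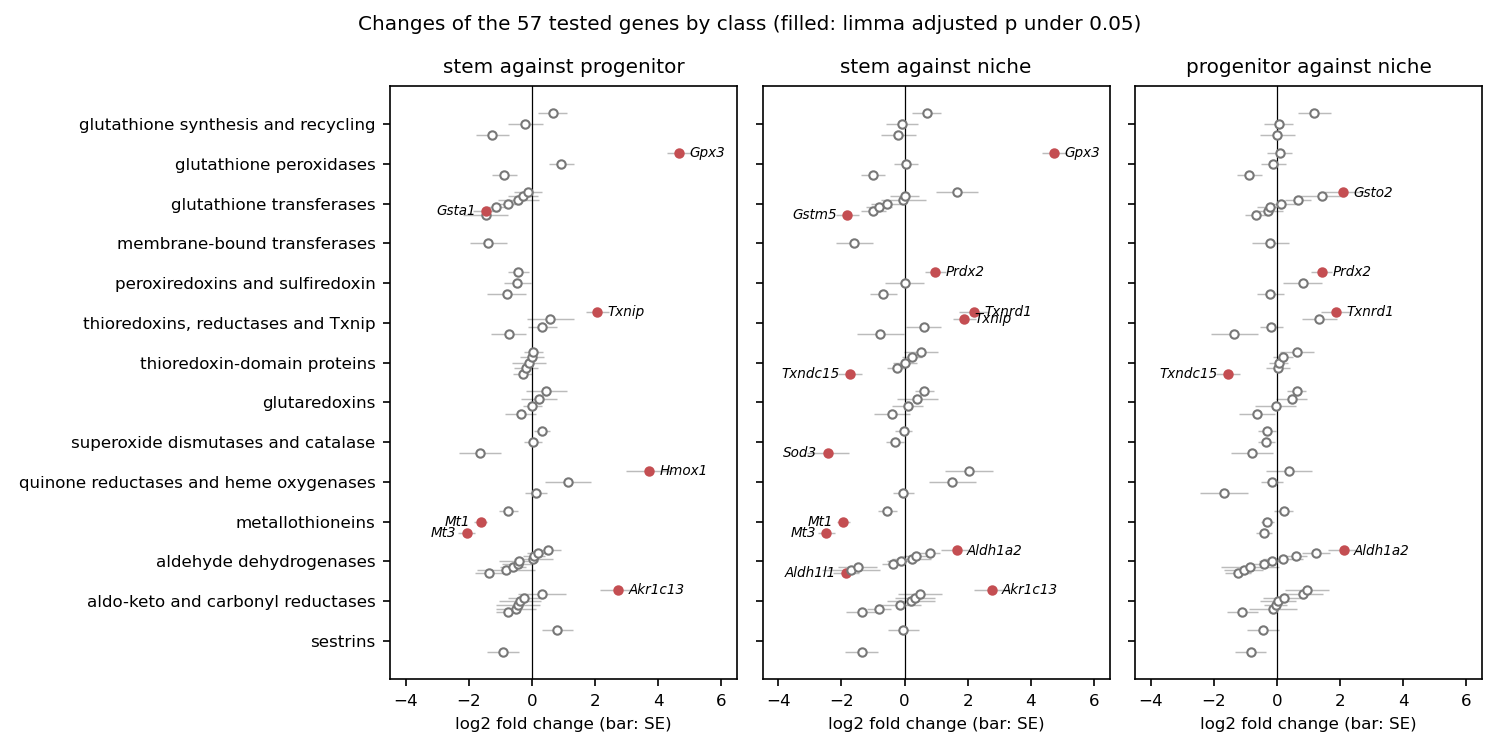
Log2 fold change of the 57 tested genes (horizontal axis, bar: standard error) in the 3 comparisons, in rows by enzyme class; filled and named points have a limma adjusted p under 0.05. Gpx3 lies farthest to the right against both other groups, at 4.66 and 4.75, and the metallothioneins Mt1 and Mt3 lie to the left.

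Glutathione peroxidases use glutathione to reduce peroxides, and Gpx3 is the secreted, extracellular member of the family. Gpx3 (chr11:54902453-54910377, GRCm38) was at 339, 830, 324 and 240 RPKM in stem replicates 1 to 4, at 17.1, 17.8, 10.3 and 13.1 in progenitor and at 7.78, 16.8, 15.7 and 15.3 in niche libraries. Every stem library was far above every other library, and stem replicate 2 was the highest. The log2 fold change was 4.66 ± 0.40 (SE) against progenitor (limma adjusted p = 1.72e-05) and 4.75 ± 0.40 against niche (limma adjusted p = 1.16e-06), and both calls were kept in all 20 alternative analyses. Gpx3 was not called between progenitor and niche libraries, with a log2 fold change of 0.09 and an adjusted p of 0.914. Of the 6 listed macrophage markers, 2 were called higher in stem than niche (Mrc1 and Adgre1), 2 lower (Ctss and Trem2) and 2 were not called (Csf1r and Tyrobp). Mrc1, named after its values were seen, was at 181 to 740 RPKM in stem libraries, 4.78 to 13.7 in progenitor libraries and 4.96 to 12.1 in niche libraries. The summed macrophage markers were also highest in stem replicate 2, and they were as high in niche as in most stem libraries. Gpx3 and Mrc1 were both low in niche and progenitor libraries. The part of macrophages in the Gpx3 result was not tested.

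Gpx1, the cytosolic peroxidase, and Gpx4, which reduces lipid peroxides in membranes, were not called. Gpx1 was at 303, 748, 405 and 365 RPKM in stem, 435, 183, 164 and 195 in progenitor and 703, 395, 241 and 431 in niche libraries, and the groups overlapped. Its log2 fold change of stem against progenitor was 0.93 (limma adjusted p = 0.211), and without progenitor replicate 1 and niche replicate 1 the adjusted p was 0.0128. Gpx1 was called lower in progenitor than niche only after leaving out progenitor replicate 1, alone (adjusted p = 0.0462 in place of 0.162) or with niche replicate 1 (0.0436). Gpx4 was at 341, 458, 419 and 443 RPKM in stem, 1639, 610, 627 and 531 in progenitor and 1651, 698, 494 and 803 in niche libraries. All stem libraries were below all progenitor and niche libraries for Gpx4, yet it was not called, at log2 fold changes of -0.88 (adjusted p = 0.239) and -0.99 (adjusted p = 0.0795). The call against niche was gained without progenitor replicate 1 (adjusted p = 0.0320) and without niche replicate 3 (adjusted p = 0.0399). It was also gained without progenitor replicate 1 and niche replicate 1 together (0.0114). Against progenitor, Gpx4 was called lower with library totals (0.0334).

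Gpx3 differs from most enzymes in containing selenocysteine, an amino acid encoded by a TGA codon that elsewhere ends translation. In the GENCODE annotation, 6 of the 62 members with a coding transcript carry such a codon: Gpx1, Gpx3, Gpx4, Txnrd1, Txnrd2 and Txnrd3. The coding sequence around it is shown for the called genes Gpx3 and Txnrd1 and for Gpx1 and Gpx4, on the + strand of GRCm38, with the selenocysteine TGA in capitals.
Gpx3: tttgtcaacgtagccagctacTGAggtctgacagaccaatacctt
Txnrd1: gacatcctccagtctggctgcTGAggttaa
Gpx1: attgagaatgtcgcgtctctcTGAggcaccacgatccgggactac
Gpx4: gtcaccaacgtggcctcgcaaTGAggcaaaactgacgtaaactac
The codon is number 73 of 227 in Gpx3 (TGA at chr11:54907256-54907258), 47 of 202 in Gpx1 and 129 of 254 in Gpx4, that is, inside the protein. In Txnrd1 it is number 498 of 500 (chr10:82896037-82896039), the last amino acid but 1 before the stop. Txnrd2 and Txnrd3 likewise have 2 codons after the TGA, 1 amino acid and the stop. Selenop, the secreted protein that carries selenium between cells, was at 1069, 2726, 988 and 706 RPKM in stem, 149, 182, 150 and 175 in progenitor and 1124, 785, 531 and 547 in niche libraries. Selenop was called higher in stem than progenitor (log2 fold change 2.86 ± 0.37, limma adjusted p = 0.000221) and lower in progenitor than niche (-2.12 ± 0.37, adjusted p = 0.00132), so it did not share the low niche level of Gpx3. Sephs1, a selenophosphate synthetase homologue, was called higher in stem than niche libraries (log2 fold change 2.58, limma adjusted p = 0.00192).

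Txnip binds reduced thioredoxin and restrains it, and it also limits glucose uptake. Txnip (chr3:96557957-96561883) was at 319, 604, 246 and 223 RPKM in stem, 57.9, 63.0, 93.6 and 96.1 in progenitor and 144, 91.4, 68.3 and 59.3 in niche libraries. The stem libraries lay above all others, with replicate 2 again the highest, and progenitor and niche libraries overlapped. Txnip was called higher in stem against progenitor (log2 fold change 2.07 ± 0.36, limma adjusted p = 0.00237) and against niche (1.90 ± 0.36, adjusted p = 0.00151), in all 20 alternatives. The antisense gene Gm15441 covers 19.4% of Txnip's exon bases, and whether the counting used strand is not given in the sources used here.

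Thioredoxin reductases return oxidised thioredoxin to its active form with electrons from NADPH, Txnrd1 in the cytosol and Txnrd2 in mitochondria. Txnrd1 (chr10:82833951-82897712) was at 33.4, 20.3, 24.7 and 37.8 RPKM in stem, 20.9, 19.9, 23.7 and 25.4 in progenitor and 2.08, 12.3, 8.51 and 3.19 in niche libraries. Stem and progenitor libraries overlapped, and all 8 were above every niche library. Its level was called higher in stem than niche (log2 fold change 2.20 ± 0.47, limma adjusted p = 0.00326) and in progenitor than niche (1.88 ± 0.47, adjusted p = 0.0168). The progenitor call was lost without progenitor replicate 3 (adjusted p = 0.0542), without progenitor replicate 4 (0.0571) and in a fit of the 2 groups alone (0.0732). Txnrd2 was at 52.9 RPKM in niche replicate 1 and between 0.413 and 5.61 in the other 11 libraries, and Txnrd3 stayed at 6.56 or below. Neither was called.

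Heme oxygenase 1, the product of Hmox1, is the inducible enzyme that breaks down heme to biliverdin, iron and carbon monoxide. Hmox1 (chr8:75093621-75100589) was at 84.4, 237, 62.7 and 65.0 RPKM in stem, 0.749, 12.7, 10.4 and 9.46 in progenitor and 94.0, 7.97, 12.2 and 25.2 in niche libraries. Every stem library was above every progenitor library, whereas niche replicate 1 was within the stem range and the other niche libraries were below it. Hmox1 was called higher in stem than progenitor (log2 fold change 3.72 ± 0.75, limma adjusted p = 0.00627), in all 20 alternatives. Against niche the log2 fold change was 2.04 ± 0.75 (limma adjusted p = 0.0649), which was called in 6 of the 20 alternatives. Among them were those without niche replicate 1 (adjusted p = 0.00678) and without progenitor replicate 1 (0.0360). It was also called with library totals (0.0104), a pseudocount of 4 (0.0432) and voom on recovered reads (0.0223). Niche replicate 1, the library with the high Hmox1, was also the one with 33% alpha-globin reads, and the part of red cell RNA in this level was not tested. The constitutive enzyme Hmox2 was at 88.8 to 235, 98.6 to 216 and 106 to 180 RPKM in the 3 groups and was not called, and 40.2% of its exon bases are shared with Cdip1 on the other strand. Nqo2, a quinone reductase, was at 9.57 to 14.8 RPKM in stem and 0.686 to 10.2 in progenitor libraries, uncalled at a log2 fold change of 1.14.

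Other genes of iron and heme handling gave 1 call each in both stem comparisons, of 8 tested. Of all tested genes, 7.1% were called in stem against progenitor and 21.6% in stem against niche. Blvrb, a biliverdin reductase acting downstream of heme oxygenase, was at 153, 399, 163 and 142 RPKM in stem, 78.1, 53.1, 39.3 and 48.5 in progenitor and 261, 34.7, 42.8 and 32.8 in niche libraries. It was called against niche (log2 fold change 1.68, limma adjusted p = 0.0424) and not against progenitor (1.85, adjusted p = 0.0578). Slc11a1, a metal transporter of phagocyte endosomes, was called higher in stem than progenitor libraries (log2 fold change 3.98, limma adjusted p = 0.00539), at means of 36.9 and 1.31 RPKM. Ncf4, a subunit of the phagocyte NADPH oxidase that makes superoxide, had means of 15.8, 0.659 and 31.5 RPKM in stem, progenitor and niche libraries. Ncf4 was called higher in stem than progenitor (log2 fold change 3.27, adjusted p = 0.0039) and lower in progenitor than niche (-3.82, adjusted p = 0.0007). In progenitor against niche Slc11a1 was not called, whereas Ncf4 and 5 of the 6 listed macrophage markers were called lower. The part of macrophages in these levels was not tested.

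**Figure D2:**
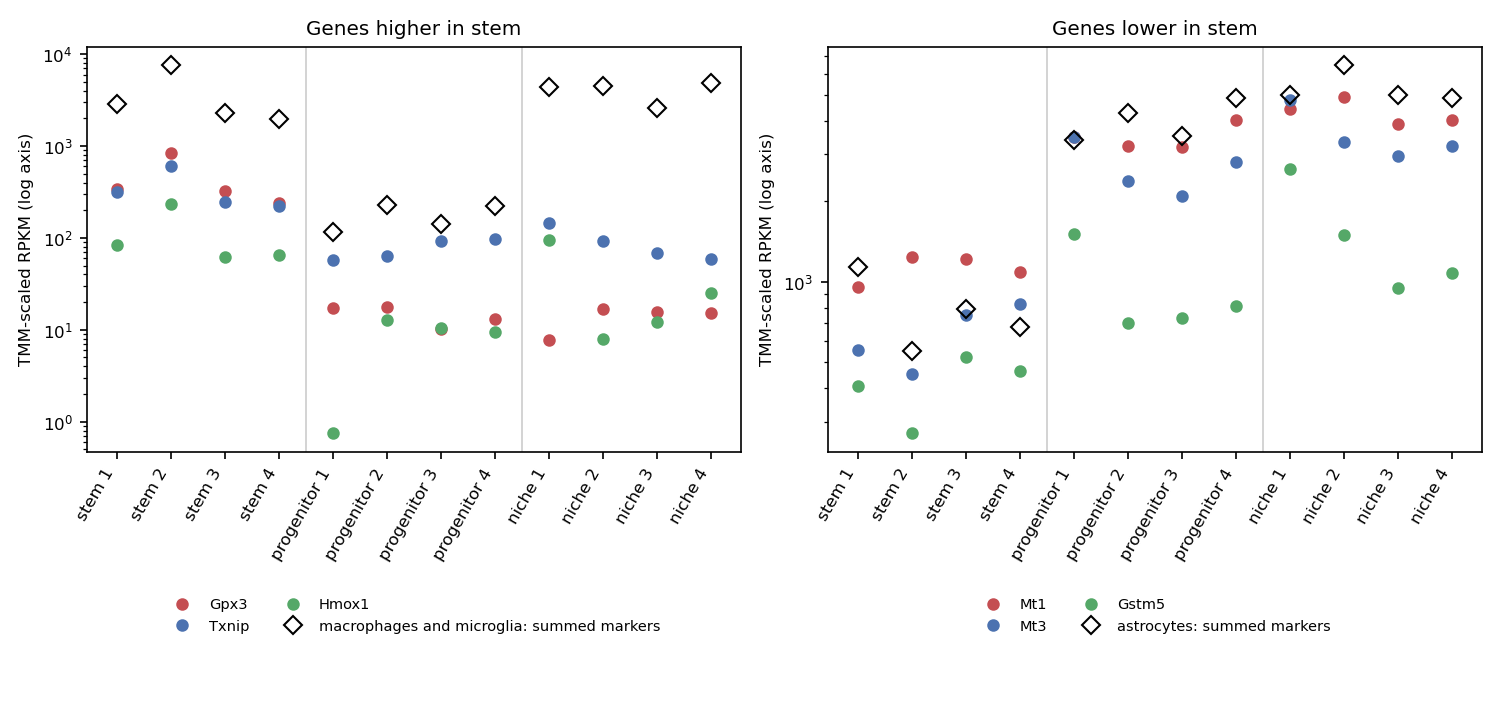
TMM-scaled RPKM (log axis) in each of the 12 libraries for Gpx3, Txnip and Hmox1 with the sum of 6 macrophage and microglia markers (left), and for Mt1, Mt3 and Gstm5 with the sum of 5 astrocyte markers (right). In the niche libraries Gpx3 is at 7.78 to 16.8 and the macrophage sum at 2623 to 4863. The right-hand genes and the astrocyte sum are all lower in the stem libraries.

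Metallothioneins are small cysteine-rich proteins that bind zinc and copper and react with oxidants, and Mt3 is the form found mainly in the nervous system. Mt1 and Mt3 had the highest mean RPKM of these genes in progenitor and niche libraries. Mt1 (chr8:94179082-94180327) was at 955, 1236, 1214 and 1093 RPKM in stem, 3472, 3217, 3201 and 4031 in progenitor and 4412, 4899, 3898 and 4039 in niche libraries. Mt3 (chr8:94152607-94154146) was at 556, 451, 751 and 824 RPKM in stem, 3472, 2378, 2093 and 2811 in progenitor and 4799, 3335, 2943 and 3217 in niche libraries. For both genes every stem library was below every other library. Mt1 was called lower in stem against progenitor (log2 fold change -1.63 ± 0.21, limma adjusted p = 0.000181) and against niche (-1.94 ± 0.21, adjusted p = 8.84e-06). Mt3 was also called against progenitor (log2 fold change -2.07 ± 0.27, limma adjusted p = 0.000207) and against niche (-2.48 ± 0.27, adjusted p = 9.47e-06). All 4 calls were kept in the 20 alternatives, and neither gene was called between progenitor and niche libraries.

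Mt2, whose start lies between those of Mt3 and Mt1 on the same chromosome, was not called. It was at 444, 270, 682 and 592 RPKM in stem, 837, 606, 760 and 1026 in progenitor and 810, 702, 521 and 734 in niche libraries. The stem values reached into the range of the other groups, and the log2 fold changes were -0.76 ± 0.30 against progenitor (limma adjusted p = 0.18) and -0.54 ± 0.30 against niche (adjusted p = 0.22). An antisense gene covers 73.5% of Mt2's exon bases. The difference between Mt2 and its neighbours was not tested. The astrocyte marker sum was lower in all stem libraries than in all others, in the same direction as Mt1 and Mt3. Oligodendrocyte markers, 6 of 9 listed, were all called lower in stem than progenitor and than niche and 0 were called between progenitor and niche; they summed to 146 to 614 RPKM in stem libraries, 2173 to 6186 in progenitor libraries and 2624 to 5839 in niche libraries. Mural cell markers, 6 of 8 listed, had 4 and 5 called lower in stem and 0 called between the other groups, with sums of 29.9 to 223, 764 to 1842 and 657 to 2625 RPKM. The part of these cell types in the result was not tested.

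The 3 neighbouring metallothionein starts can be compared in sequence, since MTF1 is known to act through a metal response element near such genes. The 250 bases before each RefSeq start are shown on the + strand of GRCm38.p6 (Mt1 chr8:94178839-94179088, Mt2 chr8:94172368-94172617, Mt3 chr8:94152357-94152606), with each match to TGCNCNC on either strand in capitals.
Mt1: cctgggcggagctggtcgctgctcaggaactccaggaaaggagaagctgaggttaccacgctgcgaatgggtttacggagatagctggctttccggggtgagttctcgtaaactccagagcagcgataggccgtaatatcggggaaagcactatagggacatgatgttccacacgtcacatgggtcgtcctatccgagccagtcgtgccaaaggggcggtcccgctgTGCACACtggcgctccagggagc
Mt2: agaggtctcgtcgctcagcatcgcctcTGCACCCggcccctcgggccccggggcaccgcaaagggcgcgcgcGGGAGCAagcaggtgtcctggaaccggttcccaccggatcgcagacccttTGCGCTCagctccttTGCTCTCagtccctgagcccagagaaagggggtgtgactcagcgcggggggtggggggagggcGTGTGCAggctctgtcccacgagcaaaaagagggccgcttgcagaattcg
Mt3: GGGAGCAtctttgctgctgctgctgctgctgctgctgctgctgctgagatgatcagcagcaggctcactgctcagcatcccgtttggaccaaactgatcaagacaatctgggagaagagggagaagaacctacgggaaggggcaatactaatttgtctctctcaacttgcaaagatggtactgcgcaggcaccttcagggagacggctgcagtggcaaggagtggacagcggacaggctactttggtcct
The windows of Mt1 and Mt3 held 1 match each, and that of Mt2 held 5. Of these 5, 3 were on the + strand and 2 on the - strand. Only the bases before 1 RefSeq start of each gene were searched. Matches outside the printed windows are therefore not counted, and the numbers do not compare the whole promoters. The part of such matches in the calls was not tested. Such a match is common: 44.4% of 32851 windows of the 250 bases before a RefSeq start held at least 1, and 34 of 71 windows of members (47.9%). RefSeq windows were found for 54 of the 63 members.

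**Figure D3:**
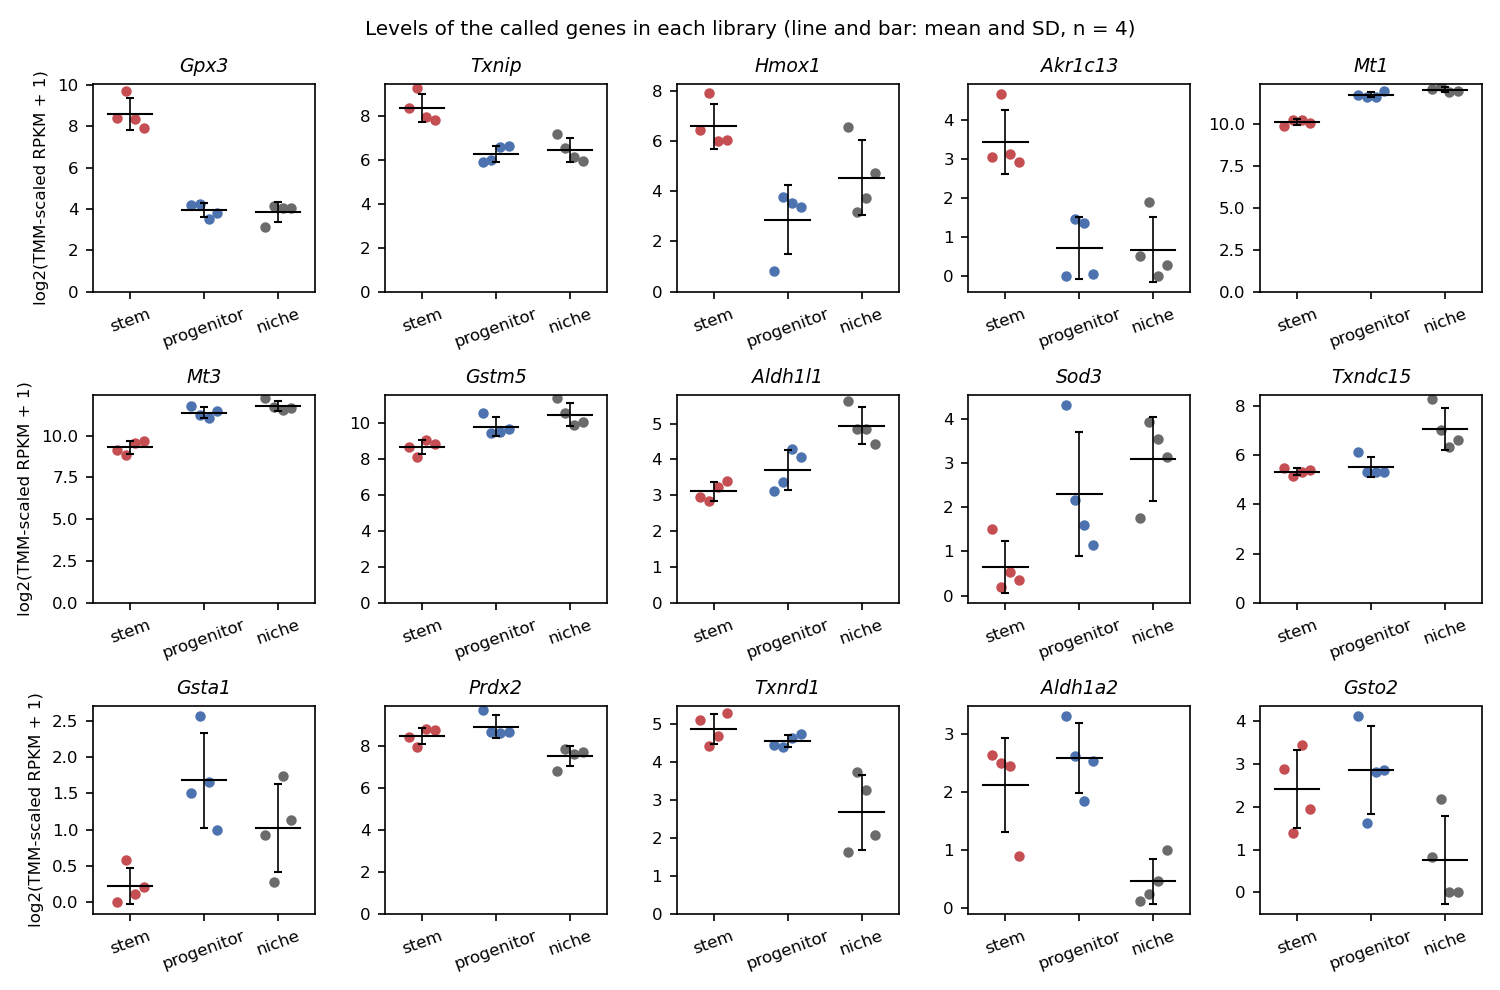
Log2(TMM-scaled RPKM + 1) of the 15 called genes, 1 panel per gene, with a point for each of the 4 libraries of a group, a line for the group mean and a bar for the SD. The stem points of Gpx3, Txnip and Akr1c13 lie above all others, and those of Mt1 and Mt3 below all others.

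Glutathione transferases attach glutathione to electrophiles. Gstm5 (chr3:107895821-107898686), a mu-class enzyme, was at 406, 272, 526 and 462 RPKM in stem, 1505, 704, 730 and 813 in progenitor and 2640, 1503, 947 and 1081 in niche libraries. The stem libraries were below all others, and progenitor and niche libraries overlapped. Gstm5 was called lower in stem than niche (log2 fold change -1.81 ± 0.35, limma adjusted p = 0.00168) in all 20 alternatives. Against progenitor the value was -1.13 ± 0.35 (limma adjusted p = 0.067), which was called in 5 of the 20 alternatives. Among them were the fit with replicate number as a block (adjusted p = 0.0417) and the one without niche replicate 1 (0.0160). An antisense gene shares 13.9% of its exon bases. The astrocyte marker sum has the same direction here too.

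The alpha-class transferases Gsta1 and Gsta4 were both lower in all stem than in all progenitor libraries. Gsta1 (chr9:78230656-78242684) was low throughout, at 0, 0.491, 0.0749 and 0.152 RPKM in stem, 1.83, 4.94, 2.14 and 1.0 in progenitor and 0.895, 0.216, 2.35 and 1.20 in niche libraries. It was called lower in stem than progenitor at a log2 fold change of -1.46 ± 0.42 (limma adjusted p = 0.0454). That call was lost in 11 of the 20 alternatives: without any 1 of the 4 stem libraries, without progenitor replicate 1, 2 or 3 or niche replicate 4, with the replicate block (adjusted p = 0.0703), without a filter and with a pseudocount of 4, with adjusted p up to 0.154 without progenitor replicate 2. Gsta4, which clears the lipid peroxidation product 4-hydroxynonenal, was at 80.4, 38.9, 78.8 and 80.7 RPKM in stem, 205, 157, 172 and 219 in progenitor and 6.79, 146, 131 and 154 in niche libraries. Its stem and progenitor libraries did not overlap, but niche replicate 1 stood far below the other niche libraries and the gene was not called against progenitor (log2 fold change -1.47 ± 0.72, limma adjusted p = 0.31). Without niche replicate 1 that adjusted p was 0.00137, and the one against niche moved from 0.977 to 0.00728.

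Gsto2, an omega-class enzyme that reduces dehydroascorbate, differed between progenitor and niche libraries. Gsto2 (chr19:47865534-47886324) was at 6.36, 1.61, 9.83 and 2.86 RPKM in stem, 16.5, 2.07, 6.04 and 6.26 in progenitor and 0.764, 3.54, 0 and 0 in niche libraries. Niche replicate 2 lay within the progenitor range, and the log2 fold change of 2.10 ± 0.65 was called at a limma adjusted p of 0.0484. The call was lost in 14 of the 20 alternatives, with adjusted p up to 0.110 without progenitor replicate 1 and 0.0567 with the replicate block; of the 12 settings that leave out 1 library, only those without progenitor replicate 2 or niche replicate 1 or 2 kept it. Gstk1, Gsto1 and Gstz1 were not called, with means of 45.2, 76.0 and 98.3 RPKM in stem, progenitor and niche libraries for Gstk1, 19.2, 22.6 and 33.7 for Gsto1 and 65.1, 70.3 and 78.0 for Gstz1. Mgst1, a membrane-bound transferase, was at 48.4, 51.9, 59.998 and 31.6 RPKM in stem, 213, 101, 90.8 and 120 in progenitor and 602, 183, 59.7 and 62.3 in niche libraries. Its stem and progenitor libraries did not overlap, but the log2 fold change of -1.38 was not called (limma adjusted p = 0.204); without niche replicate 1 the adjusted p was 0.0224. Against niche, Mgst1 had a log2 fold change of -1.59 (adjusted p = 0.0611), which was called with the replicate block (0.0275), without niche replicate 3 (0.0252) and without niche replicate 4 (0.0267).

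The enzymes that make and recycle glutathione itself gave 0 calls among 3 tested genes. Of all tested genes, 7.1, 21.6 and 11.5% were called in the 3 comparisons. Gclc, the catalytic subunit of the rate-limiting ligase, was at 3.60, 2.85, 2.53 and 7.23 RPKM in stem, 10.9, 9.33, 8.94 and 13.0 in progenitor and 1.05, 10.02, 3.48 and 5.33 in niche libraries. All progenitor libraries were above all stem libraries, at a log2 fold change of -1.26 ± 0.52 (limma adjusted p = 0.2), and without niche replicate 1 the adjusted p was 0.0412. Gclm, the modifier subunit, had means of 4.17, 4.94 and 6.30 RPKM, and Gsr, which reduces oxidised glutathione, of 18.9, 11.7 and 13.0. Gsr was above all progenitor libraries in every stem library, but was not called (log2 fold change 0.65, limma adjusted p = 0.57). In stem against niche Gsr was also uncalled (log2 fold change 0.70, limma adjusted p = 0.303), and was called without progenitor replicate 1 and niche replicate 1 (0.0440) and with library totals (0.0306).

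Peroxiredoxins reduce peroxides with electrons from thioredoxin. Prdx2 (chr8:84969587-84974834) was at 340, 251, 442 and 431 RPKM in stem, 856, 403, 393 and 411 in progenitor and 111, 233, 194 and 212 in niche libraries. All stem and all progenitor libraries were above all niche libraries, and progenitor replicate 1 was the highest. Exons of Rnaseh2a and Junb on the other strand cover 5.80% and 5.67% of its exon bases. Prdx2 was called higher in progenitor than niche (log2 fold change 1.42 ± 0.33, limma adjusted p = 0.0109) in all 20 alternatives. In stem against niche the log2 fold change was 0.98 ± 0.33 (limma adjusted p = 0.0444), and this call was lost in 12 alternatives, with adjusted p up to 0.123 without stem replicate 3 and 0.0622 with the replicate block. Of single libraries, leaving out stem replicate 1, 3 or 4, progenitor replicate 2, 3 or 4, or niche replicate 1, 3 or 4 ended it. Prdx1 was at 434 to 507 RPKM in stem libraries, 513 to 1241 in progenitor libraries and 474 to 2220 in niche libraries, with the highest value of both latter groups in replicate 1, and was not called. Srxn1, which repairs overoxidised peroxiredoxins, was at 1.77 to 4.58 RPKM in stem and 6.03 to 7.5 in progenitor libraries, uncalled at a log2 fold change of -0.80. Dividing-cell markers, at 475 to 844 in stem libraries, 116 to 248 in progenitor libraries and 6.81 to 22.3 in niche libraries, had the same direction against niche as Prdx2 and Txnrd1. In stem against progenitor all 4 were called higher, whereas Prdx2 and Txnrd1 were not called. Young neuron markers, 4 of 7 listed, summed to 925 to 1587, 2416 to 5166 and 604 to 2145 RPKM in the same order. Against niche, 3 of them were called higher in progenitor and 3 lower in stem. The part of these cells was not tested.

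Among 5 proteins with a thioredoxin domain, only Txndc15, an endoplasmic reticulum membrane protein linked to cilia, was called. Its calls were in stem and in progenitor against niche, where 21.6% and 11.5% of all tested genes were called. Txndc15 (chr13:55714650-55726227) was at 43.7, 34.6, 39.1 and 40.8 RPKM in stem, 69.4, 39.5, 38.9 and 38.9 in progenitor and 311, 130, 79.4 and 97.9 in niche libraries. Every niche library was above every other library. It was called lower in stem than niche (log2 fold change -1.73 ± 0.38, limma adjusted p = 0.00431) in all alternatives, and lower in progenitor than niche (-1.54 ± 0.38, adjusted p = 0.0167). The latter was lost without progenitor replicate 2 (adjusted p = 0.0547), 3 (0.0559) or 4 (0.0551) and with the 2 groups alone (0.0601). Markers of choroid plexus and ependyma, 4 of 7 listed, summed to 13.1 to 69.9 RPKM in stem libraries, 106 to 489 in progenitor libraries and 4112 to 9369 in niche libraries, and their part was not tested. The 4 markers split between progenitor and niche: Ttr and Kl were called lower in progenitor, Ccdc153 and Sntn higher, and Ttr made up most of the niche sum, with a mean of 7362 RPKM. In stem against niche, 2 of the 4 were called lower and 2 were not called. Txndc12, Txndc17 and Txnl4b had log2 fold changes between -0.30 and 0.24 in all 3 comparisons. The 4 glutaredoxins gave 0 calls, where 7.1, 21.6 and 11.5% of all tested genes were called in the 3 comparisons. Glrx3, an iron-sulfur cluster protein, was the most abundant, at 129 to 183, 136 to 215 and 60.4 to 161 RPKM. Without niche replicate 1, Glrx3 was called higher than niche in stem (adjusted p = 0.0267 in place of 0.162) and in progenitor libraries (0.0390 in place of 0.209). Glrx, the cytosolic glutaredoxin, was at 34.4 to 64.1 RPKM in stem and 31.6 to 72.8 in progenitor libraries, and in niche libraries at 277 in replicate 1 and 30.7 to 53.2 in the others.

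**Figure D4:**
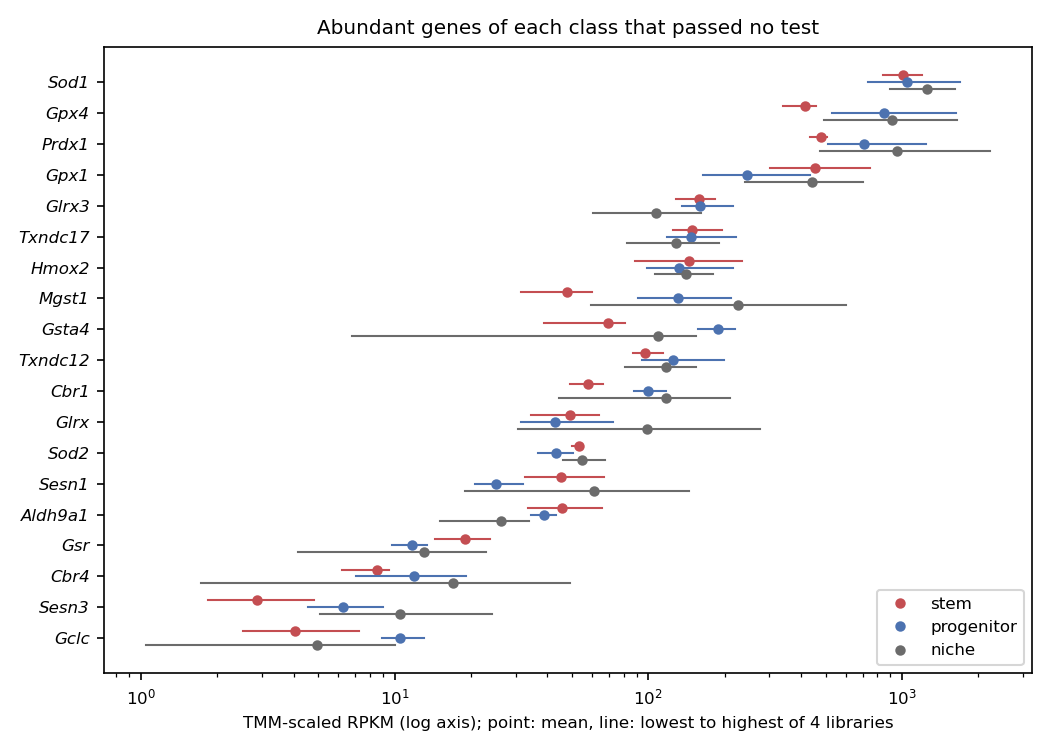
TMM-scaled RPKM (log axis) of the 19 uncalled genes that were the most abundant of their class, with a point for the mean of a group and a line from its lowest to its highest of 4 libraries. The 3 groups overlap for Sod1, Hmox2 and Txndc17, whereas the stem lines of Gpx4, Gsta4 and Mgst1 lie below the progenitor lines; Gpx4 is highest in progenitor replicate 1 and niche replicate 1, at 1639 and 1651.

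Superoxide dismutases turn superoxide into hydrogen peroxide, Sod1 in the cytosol, Sod2 in mitochondria and Sod3 outside the cell. Sod3 (chr5:52363791-52371418) was at 1.86, 0.141, 0.453 and 0.285 RPKM in stem, 18.8, 3.45, 2.01 and 1.22 in progenitor and 2.38, 14.1, 10.6 and 7.79 in niche libraries. All stem libraries were below all niche libraries. Sod3 was called lower in stem than niche (log2 fold change -2.43 ± 0.67, limma adjusted p = 0.0167), and it was no longer called after leaving out stem replicate 2 (adjusted p = 0.0514) or stem replicate 4 (0.0502). In stem against progenitor the value was -1.65 ± 0.67 (limma adjusted p = 0.189). In progenitor against niche it was -0.79 ± 0.67 (limma adjusted p = 0.480). Sod3 was called lower there in 1 of the 20 alternatives, without progenitor replicate 1 and niche replicate 1 together (-1.90, adjusted p = 0.00895). Sod1 was the abundant form, with means of 1009, 1048 and 1251 RPKM, and Sod2 had means of 53.4, 43.1 and 55. Neither Sod1 nor Sod2 was called in any comparison, with log2 fold changes between -0.34 and 0.31. Gpx3 and Sod3, both secreted enzymes, were called in opposite directions in stem against niche, Gpx3 higher and Sod3 lower.

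Aldehyde dehydrogenases gave 2 called genes among 9 tested. In stem against niche 1 was higher and 1 lower, and in progenitor against niche 1 was higher. Of all tested genes, 21.6% and 11.5% were called in these comparisons. Aldh1a2 (chr9:71215789-71296243), which makes retinoic acid from retinaldehyde, was at 5.17, 4.63, 4.42 and 0.867 RPKM in stem, 8.88, 5.15, 2.57 and 4.81 in progenitor and 0.0943, 0.182, 0.381 and 1.01 in niche libraries. The niche libraries were below all progenitor libraries, and stem replicate 4 was the only stem library in the niche range. It was called higher than niche in progenitor (log2 fold change 2.11 ± 0.50, limma adjusted p = 0.0118) and in stem libraries (1.65 ± 0.50, adjusted p = 0.0262). Leaving out stem replicate 1, 2 or 3 or niche replicate 2 ended the stem call, at adjusted p of 0.0831, 0.0714, 0.0743 and 0.0512. Fibroblast and meningeal markers, 6 of 8 listed, summed to 4.92 to 43.3 RPKM in stem libraries, 73.3 to 172 in progenitor libraries and 45.8 to 112 in niche libraries. In stem against niche all 6 had negative log2 fold changes, opposite to Aldh1a2, and 1 was called lower. In progenitor against niche 5 were positive and 1 negative, with 1 called higher and 1 lower. The part of these cells was not tested.

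Aldh1l1 (chr6:90486427-90600203), a folate enzyme widely used as an astrocyte marker, went the other way. Aldh1l1 was at 6.70, 6.20, 8.40 and 9.52 RPKM in stem, 7.69, 9.36, 18.6 and 15.7 in progenitor and 49.2, 28, 27.9 and 20.6 in niche libraries. All niche libraries were above all others, and an antisense gene covers 11.05% of its exon bases. It was called lower in stem than niche (log2 fold change -1.84 ± 0.42, limma adjusted p = 0.00489) in all 20 alternatives. The progenitor difference from niche of -1.24 was not called (adjusted p = 0.0664), but it was with voom on recovered reads (0.0393). Aldh1a1, another retinaldehyde dehydrogenase, ranged from 0.960 to 67.1 RPKM within the niche libraries, with niche replicate 1 the lowest. Its log2 fold change of stem against niche was -1.69 ± 0.92 (limma adjusted p = 0.21), and without niche replicate 1 the adjusted p was 0.00995. Aldh3a1, a stress-inducible enzyme, was at 0, 0.0563, 0 and 0 RPKM in stem and 7.5, 0.568, 0.471 and 1.29 in progenitor libraries. It was not called (log2 fold change -1.35, limma adjusted p = 0.0903), and a pseudocount of 0.1 brought the adjusted p to 0.0220. Aldh9a1 and Aldh1b1 were called in stem against niche without niche replicate 1 (Aldh9a1 higher, adjusted p = 0.0319 in place of 0.112) and without niche replicate 3 (Aldh1b1 lower, 0.0462 in place of 0.0987).

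Among 7 tested aldo-keto and carbonyl reductases, Akr1c13 was the only one called. Its calls were in stem against progenitor and stem against niche, where 7.1% and 21.6% of all tested genes were called. Akr1c13 (chr13:4191150-4205596) was at 7.22, 24.4, 7.68 and 6.58 RPKM in stem, 0, 1.73, 1.56 and 0.0258 in progenitor and 0.433, 2.69, 0 and 0.221 in niche libraries. All stem libraries were above all others, with replicate 2 the highest. The log2 fold change was 2.73 ± 0.57 against progenitor (limma adjusted p = 0.00712) and 2.76 ± 0.57 against niche (adjusted p = 0.00257), called in all 20 alternatives. Against progenitor the log2 fold change ranged from 1.57 with a pseudocount of 4 to 5.33 in voom. Reads of the near-identical Akr1c genes may be split between copies. Cbr1, a carbonyl reductase, was at 49.3 to 66.2 RPKM in stem libraries, 88.1 to 118 in progenitor libraries and 44.5 to 210 in niche libraries, and was not called (log2 fold changes -0.77 and -0.81 for stem against progenitor and niche). It was called lower in stem than niche without niche replicate 3 (adjusted p = 0.0132 in place of 0.134), and lower in stem than progenitor in a fit of the 2 groups alone (0.0200 in place of 0.306). Cbr4, another carbonyl reductase, was not called, at 6.22 to 9.49 RPKM in stem libraries, 7.07 to 19.1 in progenitor libraries and 1.73 to 49 in niche libraries, where niche replicate 1 was the highest. Without niche replicate 2, Cbr3 was called lower than niche in stem (adjusted p = 0.0112 in place of 0.0669) and in progenitor libraries (0.0393 in place of 0.174). The 2 sestrins, stress-inducible regulators of growth signalling, gave 0 calls, where 7.1, 21.6 and 11.5% of all tested genes were called in the 3 comparisons. Sesn1 had means of 45.4, 25.0 and 61.0 RPKM and Sesn3 of 2.88, 6.28 and 10.5. Sesn3 was called lower in stem than niche without niche replicate 4 (adjusted p = 0.0494 in place of 0.0681).

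Counts of genes whose groups did not overlap use no model. All 4 stem libraries were above all 4 progenitor libraries for 6 of the 57 tested genes and below them for 12, where 11.5% and 13.2% of all tested genes were. For stem against niche the counts were 5 and 8 (background 12.3% and 10.4%), and for progenitor against niche 7 and 2 (8.79% and 6.81%). The 12 genes lower in all stem than in all progenitor libraries were Mt1, Mt3, Gstm5, Gsta1, Gsta4, Mgst1, Gpx4, Prdx1, Gclc, Cbr1, Srxn1 and Aldh3a1, of which 3 were called.

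NRF2 is known to bind an antioxidant response element in genes of this kind, and 3 called genes had a match to TGACNNNGC in the 250 bases before a RefSeq start. Each match is shown in capitals with its surroundings on the + strand of GRCm38.p6: Aldh1a2 at chr9:71215656-71215706, Gstm5 at chr3:107895791-107895841 and Txnrd1, where it reads on the - strand, at chr10:82859093-82859143.
Aldh1a2: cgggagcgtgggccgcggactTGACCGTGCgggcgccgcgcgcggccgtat
Gstm5: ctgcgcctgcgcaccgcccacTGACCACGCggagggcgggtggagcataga
Txnrd1: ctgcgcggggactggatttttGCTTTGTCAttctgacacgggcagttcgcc
A match was held by 10 of 71 windows of members (14.1%) and by 10.2% of all 32851 windows. Bases outside these windows were not searched, so a called gene without a match here may hold one elsewhere. The 3 genes did not share a pattern: Gstm5 was called lower in stem than niche, Txnrd1 and Aldh1a2 higher.

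Further genes of glutathione and redox metabolism were taken from a list of 84, of which 37 are listed in the table and 35 were tested. Stem against progenitor called 3 higher and 0 lower, where 3.71% and 3.4% of all tested genes were. Stem against niche called 3 higher and 1 lower, where 10.9% and 10.7% of all tested genes were. Progenitor against niche called 0 higher and 3 lower, where 5.68% and 5.78% of all tested genes were. Slc1a1, a glutamate and cysteine transporter of neurons, was at 3.60, 1.29, 4.34 and 0.709 RPKM in stem, 0.303, 3.10, 4.04 and 3.28 in progenitor and 19.97, 64.5, 52.0 and 64.7 in niche libraries. It was called lower than niche in stem (log2 fold change -3.90 ± 0.58, limma adjusted p = 0.000163) and in progenitor libraries (-3.84 ± 0.58, adjusted p = 0.000406). Mature neuron markers, 3 of 8 listed, summed to 13.5 to 21.8 RPKM in stem libraries, 19.3 to 48.8 in progenitor libraries and 122 to 516 in niche libraries, and their part was not tested. Nadk, the kinase that makes NADP, was at 34.9, 57.7, 43.3 and 30.8 RPKM in stem, 18.1, 22.7, 16.4 and 20.4 in progenitor and 6.11, 7.30, 19.6 and 10.5 in niche libraries, called in stem against niche (log2 fold change 1.93 ± 0.40, limma adjusted p = 0.00257). The 3 listed NRF2 regulators, Bach1, Maff and Mafk, were not called.

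The 6 genes that did not reach the filter in 4 libraries were Akr1c14, Akr1c19, Akr1d1, Gsta3, Mgst2 and the pseudogene Gpx2-ps1. Akr1c14 was at 7.06 RPKM in niche replicate 3 and at 0.803 or below in the other libraries. Gpx2-ps1 was at 15.5 RPKM in progenitor replicate 1 and at 0.836 or below in the others. Mgst2 was at 17.7 RPKM in progenitor replicate 1 and at 0.975 or below in the other libraries. Gsta3 was at 0.0593 to 1.20 RPKM in progenitor libraries and 0.193 or below elsewhere, the same side as Gsta1. A library at 0 is compatible with up to 3 reads, which is 0.131 to 0.395 CPM in these libraries, counting error only.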

How the data were processed

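RNA of 1000 sorted cells per library was amplified and sequenced, per the labels' protocols. The table the authors deposited holds log2 values, found to be log2(RPKM + 1), for 10749 genes in 12 libraries. The build is GRCm38 (mm10), per the submitters' processing notes; the sources used here give no aligner, counter or use of strand. The deposited log2 values were converted to RPKM, and reads were recovered from their steps. Each gene was given an exon length that makes its reads whole, so that 100% were whole within 1e-05 reads follows from this choice. Of these lengths, 1234 equalled the annotated length and 9276 came from the values. The listed genes add up to 99.9986 to 100.002% of each library total. RPKM were therefore relative to the listed genes, nearly all on the + strand, and a gene sharing exon bases with a - strand gene may hold its reads. Positions are from GENCODE M21.

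RPKM were divided by TMM factors (0.418 to 1.25). Genes entered with at least 10 reads per median library (0.767 CPM) in 4 libraries and 15 reads in all, 8361 genes. limma 3.58.1 in R 4.3.3 (trend, robust) was fitted to log2(RPKM + 1) over all 12 libraries, 1 mean per group, adjusted by Benjamini-Hochberg over all genes at 0.05, and checked on simulated data. Text names every called member, the 2 most abundant per class, and up to 3 called genes per pathway group; other members are named with values. Members and lists were chosen with earlier results of these data known, and the neural stem marker list was added with the data in view. Alternatives were library totals, pseudocounts 0.1 and 4, no filter, a replicate block, the 2 groups alone, voom on recovered reads, and libraries left out. The series text takes the 3 populations from each replicate; same-numbered libraries correlated at -0.13 to 0.21, so blocked values are given where they change a call.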

Additional observations from a re-analysis of the deposited data

Results flagged for a closer look

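Among the 15 called genes, 45 groups of 4 libraries were searched for a library far from the other 3 of its group (gap over range above Dixon's critical value), and 6 were found; chance alone gives about 1 in 20. In progenitor replicate 1, Prdx2 was at 856 RPKM where the other progenitor libraries were at 393 to 411. The same library held Txndc15 at 69.4 RPKM against 38.9 to 39.5 and Hmox1 at 0.749 RPKM against 9.46 to 12.7. In stem replicate 2, Akr1c13 was at 24.4 RPKM against 6.58 to 7.68 in the other stem libraries. Stem replicate 4 held Aldh1a2 at 0.867 RPKM against 4.42 to 5.17. In niche replicate 1, Gpx3 was at 7.78 RPKM against 15.3 to 16.8.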

How the results depend on the processing

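Of the 24 calls, 17 were kept in all 20 alternatives, 7 were lost in at least 1 and 0 changed direction. Leaving out 1 library gave 363 to 1111 called genes (594 with all libraries) in stem against progenitor, 1281 to 2481 (1806) in stem against niche and 543 to 1652 (958) in progenitor against niche, the highest each time without niche replicate 1 and the lowest without stem replicate 2, stem replicate 4 and progenitor replicate 3. Members called then numbered 6 to 11 (4 higher throughout, 2 to 7 lower), 10 to 16 (4 to 8 higher, 5 to 10 lower) and 2 to 6 (2 to 5 higher, 0 to 2 lower). Without progenitor replicate 1 and niche replicate 1 together, 1144, 3043 and 1997 genes were called in the 3 comparisons, with 5 members lower in the first, 19 members (10 higher) in the second and 3 members lower in the third. Scaling by library totals gave 5 members lower in stem against progenitor, 19 members (13 higher) in stem against niche, and 1839 genes and 10 members (9 higher) in progenitor against niche. With the 2 groups alone, stem against progenitor called 1414 genes and 12 members (8 lower), and progenitor against niche 529 genes and 2 members (2 higher, 0 lower). With voom on recovered reads, 2 members were lower in progenitor against niche. The cause of these shifts was not tested. With the replicate block, 607, 1814 and 947 genes and 7, 12 and 4 members were called. The block moved the calls of Gsta1, Gstm5, Prdx2, Gsto2 and Mgst1 given above and changed no other member's call. Depth limits the low genes: Gsta1 had at most 85 reads in a library.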
